A study of Mus musculus with 43 samples.

Results

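Astrocytes were immunopanned from the cortical grey matter of 6 immunocompetent control mice, and their transcripts were set against those of the other glia of the same mice. The members are the 6 control astrocyte libraries, chosen by their labels, out of 22 control libraries and 43 libraries in all. The other control libraries were 6 of microglia, 6 of oligodendrocyte precursor cells (OPCs) and 4 of oligodendrocytes. Mice are numbered by the pair number in the labels, and control libraries with the same number were taken to come from the same mouse. The controls were littermates of Rag2-/- mice, 3 months old and of both sexes. Those of mice 1, 2, 3 and 5 were Rag2 +/- and those of mice 4 and 6 Rag2 +/+, so most control libraries carried a Rag2 null allele, and oligodendrocytes came from mice 1, 3, 5 and 6. Rag2 is needed to recombine antigen receptor genes, and Rag2-/- mice have no mature lymphocytes. Their 21 libraries, which the main comparison did not use, were of the same cell types.

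Astrocytes are the glia that surround synapses and ensheath blood vessels. They are known for clearing glutamate and potassium released by neurons, for moving water at the vessel wall, for being joined to each other by gap junctions, and for supplying neurons with lactate, glutamine and lipids. Microglia are the resident macrophages of the brain, oligodendrocytes make myelin, and OPCs are the dividing cells from which oligodendrocytes arise. OPCs and astrocytes both descend from radial glia, whereas microglia descend from the yolk sac.

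Immunopanning isolates cells by an antigen on their surface, which an antibody fixed to a dish holds back while the rest is washed off. Here the dishes used for a mouse were those for CD45 (microglia), then PDGFRα (OPCs), GalC (oligodendrocytes) and last HepaCAM (astrocytes), with O4 dishes before GalC to deplete remaining OPCs, so astrocytes were collected from what the earlier dishes had left. The libraries were made from amplified cDNA. The control libraries held 6499417 to 13709286 read pairs counted on genes, with a median of 9817437. All libraries of 1 cell type were sequenced on the same lane, so a difference between cell types cannot be told apart from one between lanes. The share of counts on genes of the mitochondrial genome was 28.1% to 35.4% in astrocytes, 6.76% to 11.7% in microglia, 22.4% to 32.0% in OPCs and 45.8% to 58.3% in oligodendrocytes, and it thus also moved with cell type. In bulk libraries, a lower share of cells that hold a transcript and less of it per cell cannot be told apart.

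The 4 markers given for astrocytes set the 6 libraries apart from every other control library. Levels are given as CPM, the count of a gene relative to the library total after TMM scaling, which corrects for depth and for composition but not for gene length. Slc1a2 encodes GLT-1, the main glutamate transporter of the forebrain. It stood at 12397, 12654 and 15168 CPM (lowest, median and highest of 6) in astrocytes, 95.8, 110.2 and 163 in microglia, 1575, 1919 and 2020 in OPCs and 1255, 1054, 1626 and 2813 in the 4 oligodendrocyte libraries, given in the order of mice 1, 3, 5 and 6. Aldoc, the aldolase isoform of brain glycolysis, stood at 2647, 3255 and 3880 CPM in astrocytes, 19.1, 24.2 and 36.4 in microglia, 202, 393 and 503 in OPCs and 147, 162, 306 and 409 in oligodendrocytes. The lowest astrocyte library thus lay above the highest library of any other type for both genes, and microglia lay lowest.

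Aqp4 encodes the water channel of the astrocyte endfeet. Its level was 681, 824 and 968 CPM in astrocytes, 1.89, 3.51 and 9.17 in microglia, 39, 62 and 70.7 in OPCs and 22.9, 19.7, 9.64 and 83.6 in oligodendrocytes. Gja1, which encodes the gap junction protein connexin 43, stood at 610.3, 738 and 776 CPM in astrocytes, 0.949, 3.03 and 6.41 in microglia, 26, 47.3 and 66.3 in OPCs and 21.3, 8.79, 46.5 and 81.5 in oligodendrocytes. For neither gene did the groups overlap with astrocytes, and the oligodendrocyte library of mouse 6 was the highest of its type for all 4 markers. By edgeR's quasi-likelihood test over 19368 genes, with p-values adjusted after Benjamini and Hochberg, the log2 difference between astrocytes and the mean of the 3 other types was 4.18 ± 0.14 for Slc1a2 (± SE; adjusted p = 1.02e-16), 4.58 ± 0.19 for Aldoc (adjusted p = 3.2e-15), 5.33 ± 0.30 for Aqp4 (adjusted p = 5.86e-13) and 5.33 ± 0.31 for Gja1 (adjusted p = 6.95e-13). The smallest of the 3 differences from a single type was the one from OPCs for each of the 4 genes, at 2.82, 3.12, 3.79 and 3.99.

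**Figure D1:**
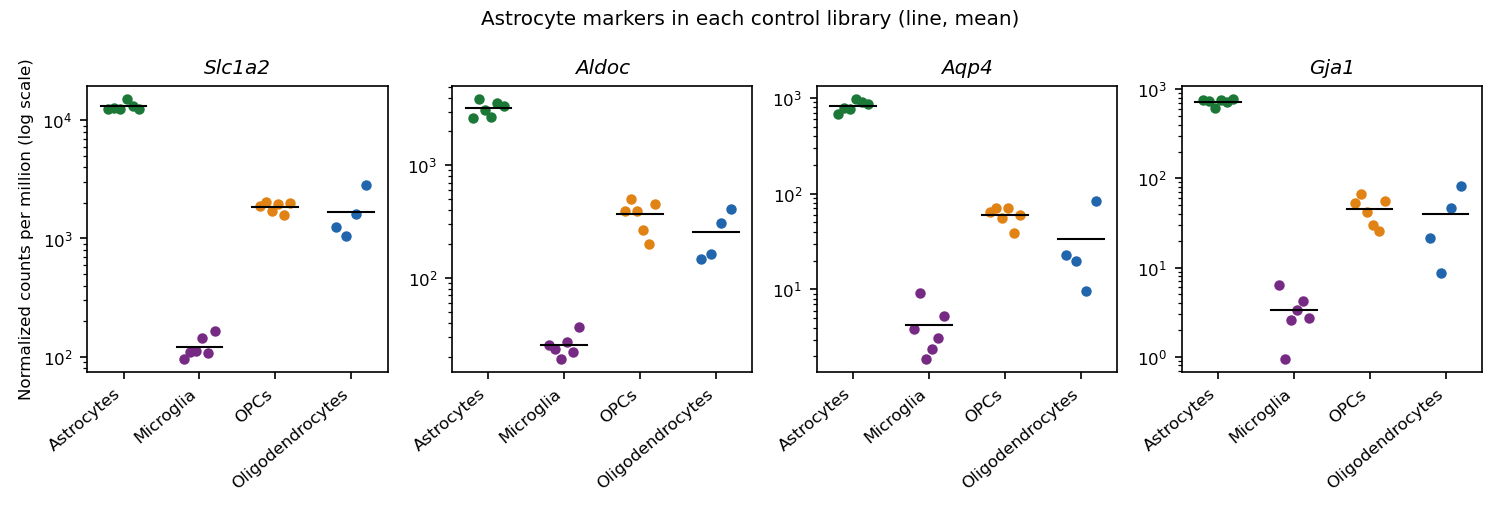
Levels of Slc1a2, Aldoc, Aqp4 and Gja1 in every control library. Each point is a library, the horizontal line is the mean of the cell type, and the vertical axis is in normalized CPM on a log scale. The 6 astrocyte libraries lie above all 16 other libraries in each panel, and microglia lie lowest.

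Libraries of 1 cell type also held markers of the others. The summed level of 11 oligodendrocyte markers was 3967 to 5591 CPM in the astrocyte libraries against 29315 to 37715 in oligodendrocytes. Mbp, the major myelin basic protein gene, was at 12.4% of its oligodendrocyte level in astrocytes, and Cnp, which encodes a myelin enzyme, was at 34.1%, the lowest and highest shares of the list (median 25.4%). No gene of the list was at 0 in the astrocytes. Microglia markers were at 0.66% to 2.48% of their microglia level in the astrocyte libraries (10 genes, summed level 103 to 415 CPM), and OPC markers at 1.93% to 6.25% of their OPC level (7 genes, 108 to 280 CPM). Read the other way, the 4 astrocyte markers were at 0.466% to 0.929% of their astrocyte level in microglia, at 6.28% to 14.2% in OPCs and at 4.11% to 12.9% in oligodendrocytes. Whether these levels are of other cells in the suspension or of the sorted cells themselves was not tested. Summed levels in the astrocyte libraries were 298 to 558 CPM for 11 neuron markers, below the 647 to 1296 of OPCs and the 1700 to 4534 of oligodendrocytes, and 12.1 to 48.8 CPM for 10 endothelial markers. Of these, 8 neuron and 2 endothelial markers were lower in astrocytes than in the mean of the other glia and none was higher, where 21.6% of all genes tested were lower and 22.2% higher, so the endothelial count is near that of all genes. Of 9 mural and fibroblast markers, 3 were higher and 2 lower against the mean, but against OPCs 1 was higher and 3 were lower. Of 2 ependymal markers tested 1 was higher, and of 3 proliferation and neuroblast markers tested 2 were lower. Of 11 early response genes, known to be induced by tissue dissociation, 5 were higher and 3 lower against the mean. Against microglia 1 of the 11 was higher (31.3% of all genes) and 8 were lower (29.8%). Against oligodendrocytes 7 were higher (17.1%) and 1 lower (20.5%), and against OPCs 5 were higher (13.5%) and 3 lower (17.4%). Of 4 red blood cell markers 2 were called higher, and their summed level, 1.22 to 407 CPM in astrocytes, rested on the library of mouse 1. Without that library the log2 difference of Hbb-bs, a β-globin gene, from the mean of the other glia was -3.41 instead of 3.97. Pdgfra, the gene of the OPC panning antigen, stood at 8.96, 20.9 and 99.5 CPM in astrocytes against 1369, 1710 and 1908 in OPCs. Hepacam, the gene of the antigen that caught the astrocytes, stood at 421, 548 and 588 CPM in astrocytes and at 277, 246, 158 and 198 in oligodendrocytes.

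**Figure D2:**
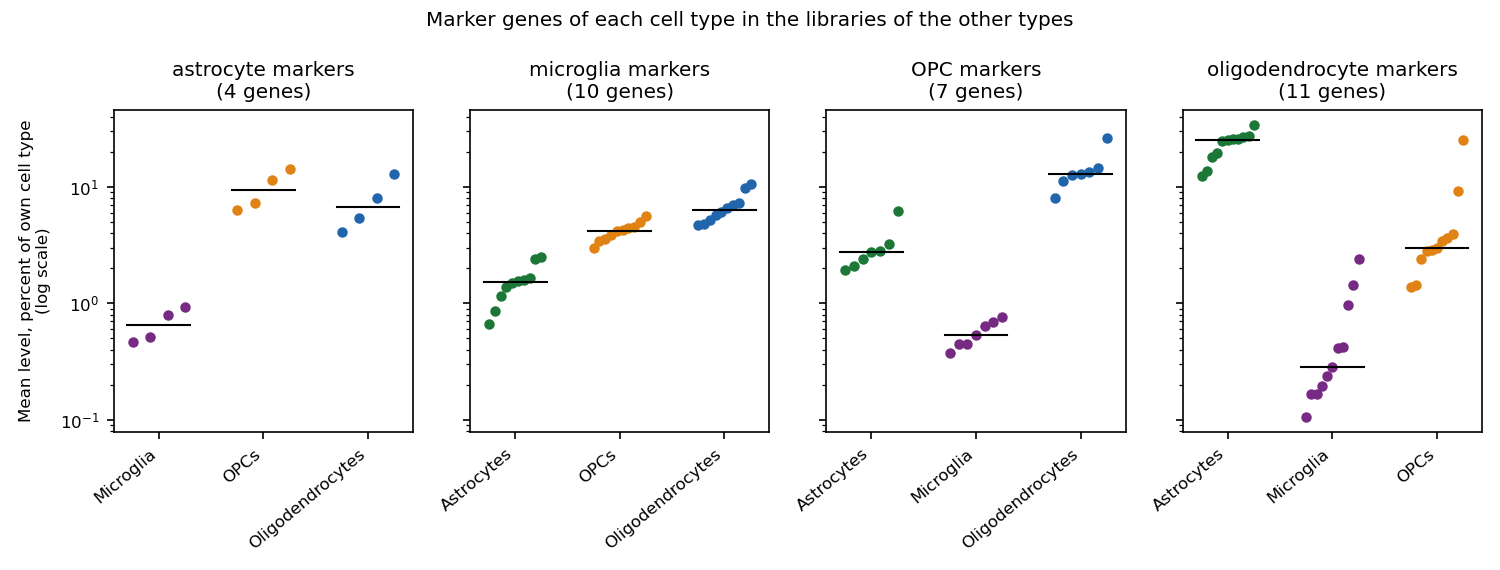
Mean level of each marker gene in the libraries of the other cell types, as a percent of its level in its own type (log axis). Each point is a gene, the horizontal line is the median of the list, and panels are the 4 lists of markers. Oligodendrocyte markers in astrocyte libraries lie between 12.4% and 34.1%, higher than any other list in the astrocytes.

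Across all genes, 4304 of 19368 were higher in astrocytes than in the mean of the other glia (22.2%) and 4185 were lower (21.6%). Against 1 type at a time, 6053 genes were higher than in microglia (31.3%) and 5768 lower (29.8%). The comparison with OPCs called 2624 genes higher (13.5%) and 3373 lower (17.4%), and that with oligodendrocytes 3303 higher (17.1%) and 3974 lower (20.5%). With library size taken as the counts without mitochondrial genes, the median difference of all genes moved by 0.22 against microglia, -0.30 against OPCs and 0.15 against oligodendrocytes on the log2 scale, and the share of the OPC calls that were higher in astrocytes was 26.4% instead of 43.8%. Against the mean the median moved by 0.02. This setting, used again below, also left out TMM scaling, and the part of each change in the shifts was not tested.

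The mean of 3 types can be low while 1 of them matches or exceeds the astrocytes. Of the 4304 genes called higher against the mean, 1157 (26.9%) had their highest level in another type, 516 of them in oligodendrocytes, 443 in OPCs and 198 in microglia. All 11 oligodendrocyte markers were among the genes called higher against the mean, and all 11 were lower than in oligodendrocytes (median log2 difference -2.01). Genes that set astrocytes apart from each type were therefore taken as those called higher against each of the 3 types with a fitted log2 difference of at least 2, a factor of 4, from each. This held for 489 genes (2.52% of those tested), which are called astrocyte-enriched below, and the mirror rule held for 300 astrocyte-depleted genes (1.55%). With library size taken without mitochondrial genes, 431 genes were enriched, of which 423 were among the 489.

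The levels of the enriched genes in the other types followed an order. OPCs were the nearest type for 361 of the 489 genes, oligodendrocytes for 89 and microglia for 39, while microglia were the farthest for 360. Among the 274 enriched protein-coding genes with a mean of at least 10 CPM in astrocytes, the median level was 11.7% of that of astrocytes in OPCs (5th to 95th percentile 5.59% to 23.2%), 6.77% in oligodendrocytes (1.497% to 21.9%) and 1.44% in microglia (0.302% to 15.8%). The astrocyte markers themselves, given above, had medians of 9.38%, 6.72% and 0.656% in the same libraries. Between astrocyte libraries these genes had a median coefficient of variation of 18.2% over the 6 mice (5th to 95th percentile 7.79% to 35.3%). For 431 of all 489 every astrocyte library lay above every other library, which held for 1027 of all genes tested (5.3%). The rule for enriched genes favours this separation, so where it is given for single enriched genes it describes them and adds no support. At least 1 other type was at or under 3 counts in every library for 160 of the enriched genes, and their fitted differences are then no measure of size. By the ratio of mean levels, or its lower bound where a type was at this floor, 460 of the 489 were at least 4-fold higher than in each type.

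Among the 10 enriched protein-coding genes with the highest level per length in astrocytes were, in falling order, Slc1a2, Aldoc, Cpe, Gstm1, Ndrg2, Clu, Atp1b2, Fam107a and Gstm5, with mean levels from 936 to 266 CPM per kilobase of exon. Cpe, the carboxypeptidase that trims propeptides in secretory granules, stood at 1786, 2032 and 2165 CPM in astrocytes, 18.6, 21.8 and 29.9 in microglia, 437, 476 and 599 in OPCs and 259, 296, 285 and 427 in oligodendrocytes. Its log2 difference from OPCs, 2.04 ± 0.14, was the closest to the rule's limit of the 10, and Cpe and Ndrg2 left the enriched set when library size was taken without mitochondrial genes. Ndrg2, a member of the N-myc downstream regulated family, stood at 2259, 2514 and 2768 CPM in astrocytes against 411, 549.8 and 613 in OPCs, and clusterin (Clu), a secreted chaperone that travels with lipoproteins, at 1982, 2365 and 2822 against 261, 347 and 449. Fam107a, which encodes an actin-binding protein, stood at 1023, 1301 and 1754 CPM in astrocytes against 79.6, 155 and 223 in OPCs. For the 9 genes named, all 6 astrocyte libraries were above all others, as for 431 of the 489 enriched genes and 5.3% of all genes tested. Microglia were at 0.794% (Aldoc) to 2.54% (Gstm1) of the astrocyte level of these 9 genes.

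The 10 enriched protein-coding genes farthest from their nearest type, among those with at least 10 CPM in astrocytes, were of lower level. Thbs4, the matrix protein thrombospondin 4, stood at 10.1, 17.8 and 33 CPM in astrocytes and at 0, 0.19 and 0.853 in OPCs, 0, 0.054 and 0.525 in microglia and 0.514, 0, 0 and 0 in oligodendrocytes. Its log2 difference from OPCs was 6.10 ± 0.82 (edgeR, Benjamini-Hochberg adjusted p = 2.9e-06), and its highest astrocyte, OPC and oligodendrocyte libraries were all of mouse 1. Frem2, which encodes a protein of basement membranes, followed with 27.6, 40.2 and 45.6 CPM in astrocytes against 0, 0.935 and 1.28 in OPCs (log2 difference 5.78 ± 0.69). Lama3, the laminin α3 chain of basement membranes, stood at 45.9, 85.2 and 96.8 CPM against 0.853, 3.7 and 4.57 in OPCs (log2 difference 4.70 ± 0.49). The astrocyte libraries did not overlap any other type for these 3 matrix genes, as for 431 of the 489 enriched genes.

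The other 7 genes of this group were enzymes, a receptor subunit, a carrier and a hormone. Grin2c, which encodes the GluN2C subunit of the NMDA receptor, stood at 123, 167 and 182 CPM in astrocytes, 2.83, 7.01 and 13.6 in OPCs and 0.169, 0.706 and 2.44 in microglia. Aox1, an aldehyde oxidase, stood at 48.9, 82.2 and 115 CPM in astrocytes against 2.25, 3.2 and 7.65 in OPCs, and Cyp4f15, a cytochrome P450, at 95, 141 and 175 against 0.916, 7.13 and 11.7. Heph, the copper enzyme hephaestin that oxidizes iron for export, stood at 8.54, 13.9 and 15.4 CPM in astrocytes, and as no microglia library held more than 3 counts of it, its level was at least 42.1-fold higher in astrocytes than in microglia. Rln1, which encodes relaxin, was at least 40.6-fold higher than in microglia in the same way (6.74, 12.2 and 18.5 CPM in astrocytes). Slc25a34, a member of the mitochondrial carrier family, and Fkbp10, a prolyl isomerase of collagen folding, stood at 22.9 to 46.4 and 21.5 to 28.5 CPM in astrocytes and at no more than 3.31 and 2.05 CPM in any other library. Of the exonic bases of Fkbp10, 25.5% overlap another gene, so its count is uncertain.

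Promoter sequences were taken from RefSeq (GRCm38.p6) for 4 enriched genes of different roles, to show the bases next to a start site: Aldoc of glycolysis, Gja1 of gap junctions, Gfap of the cytoskeleton and Thbs4 of the matrix. Each run has 250 bases before the start site and 10 from it onward, and was placed on GRCm39 by its exact match, at chr11:78213649-78213908 (plus strand) for Aldoc, chr10:56253146-56253405 (plus) for Gja1, chr11:102788017-102788276 (minus) for Gfap and chr13:92931317-92931576 (minus) for Thbs4. Aldoc has a further RefSeq start site downstream. Each of the 4 start sites lies inside the annotated span of its gene, which for Gfap ends at 102791738. Capitals mark matches, on either strand, to motifs of factors studied in astrocytes: TTGGCA (a site of NFI factors), ACAAAG (SOX factors), GTGGGAA (RBPJ, the DNA-binding partner of Notch), TTCNNNGAA (STAT factors) and TATAAA (the TATA box). A match is a run of letters and not a measured binding site.
Aldoc: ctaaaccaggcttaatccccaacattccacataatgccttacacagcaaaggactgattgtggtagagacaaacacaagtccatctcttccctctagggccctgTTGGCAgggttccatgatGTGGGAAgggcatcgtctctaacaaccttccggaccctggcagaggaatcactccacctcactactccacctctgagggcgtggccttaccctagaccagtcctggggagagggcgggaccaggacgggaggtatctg
Gja1: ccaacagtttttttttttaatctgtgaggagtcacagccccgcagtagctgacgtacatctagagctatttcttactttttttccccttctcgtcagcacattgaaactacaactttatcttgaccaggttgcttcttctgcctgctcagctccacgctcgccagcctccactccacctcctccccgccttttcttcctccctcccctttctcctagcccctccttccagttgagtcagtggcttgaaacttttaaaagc
Gfap: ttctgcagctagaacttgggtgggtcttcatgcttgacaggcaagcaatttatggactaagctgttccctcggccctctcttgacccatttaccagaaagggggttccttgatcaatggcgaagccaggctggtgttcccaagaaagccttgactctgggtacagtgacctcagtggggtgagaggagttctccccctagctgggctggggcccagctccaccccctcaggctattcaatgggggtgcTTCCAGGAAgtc
Thbs4: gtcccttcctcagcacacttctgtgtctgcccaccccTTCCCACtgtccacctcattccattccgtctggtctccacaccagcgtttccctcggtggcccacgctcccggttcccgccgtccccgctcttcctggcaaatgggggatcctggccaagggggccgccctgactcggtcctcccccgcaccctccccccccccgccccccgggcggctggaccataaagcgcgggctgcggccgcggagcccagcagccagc

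The Aldoc run held an NFI and an RBPJ match, the Gfap run a STAT match at its start site, the Thbs4 run an RBPJ match on the other strand, and the Gja1 run none. Over the 300 bases from 250 before to 50 after the start, a promoter was given for 261 of the 346 enriched protein-coding genes and for 10985 of the 14124 protein-coding genes tested. The NFI motif was in a promoter of 16.1% of the enriched genes and 13.7% of all. The shares were 19.5% and 16.5% for the SOX motif, 8.81% and 7.51% for RBPJ, 9.20% and 8.05% for STAT, and 12.6% and 9.19% for the TATA box. The full palindrome of NFI was in none of the enriched genes' promoters and in those of 5 genes of all (0.0455%). With the highest value among its promoters taken for each gene, the median over genes was 4.67 CG dinucleotides per 100 bases for the enriched genes and 7 for all. Each of the 5 motifs was thus somewhat more frequent and CG less frequent among the enriched genes, and no test was run on these shares.

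**Figure D3:**
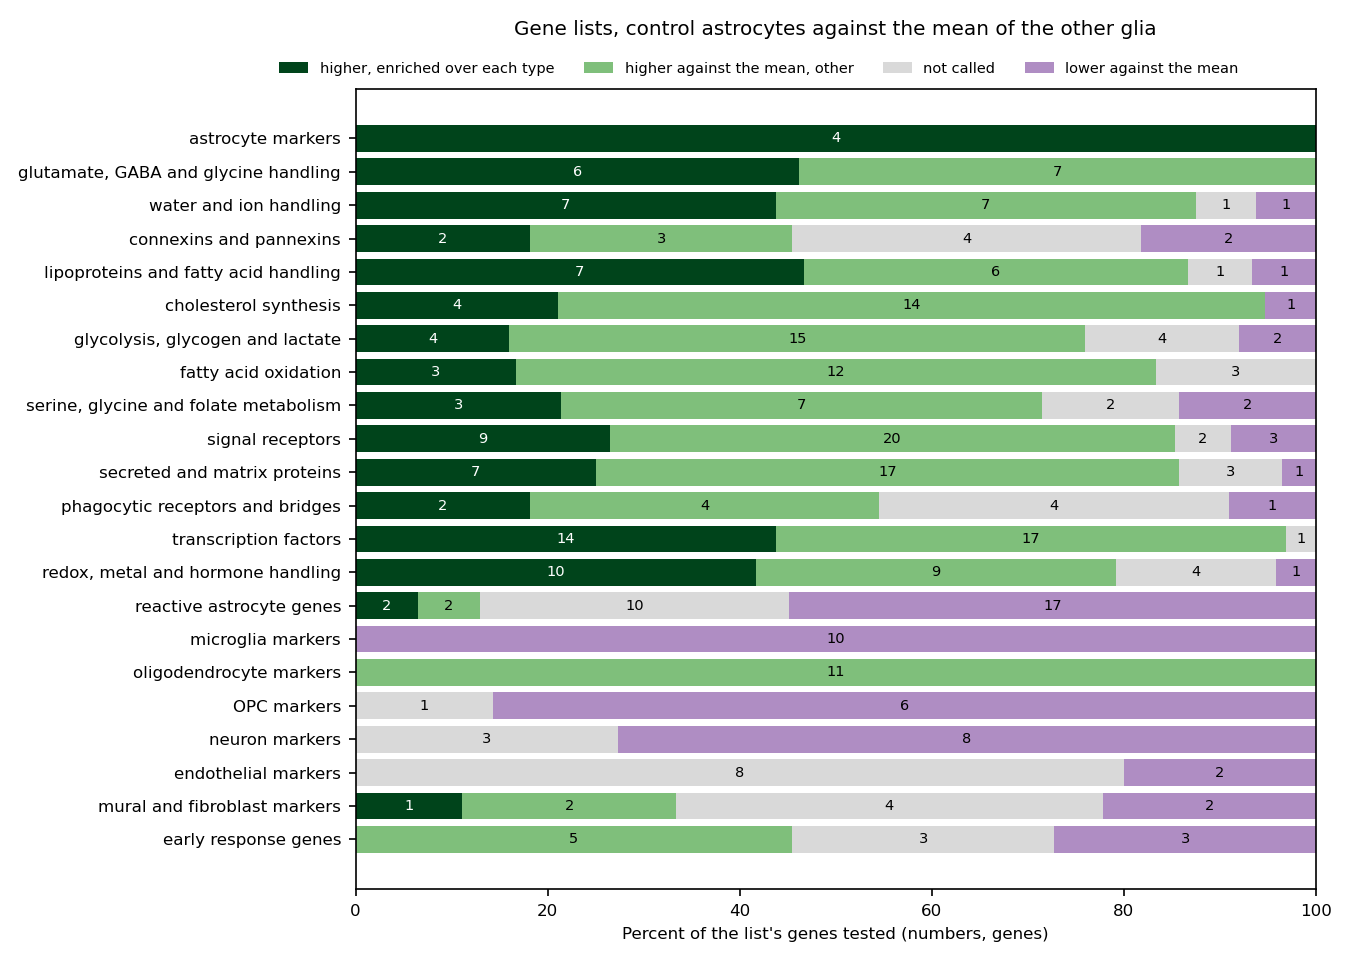
Gene lists in control astrocytes against the mean of the other glia. Each bar is a list, its length is 100% of the list's genes tested, and the numbers are genes that were enriched over each type, otherwise higher against the mean, not called, or lower. Lists of glutamate handling, cholesterol synthesis and transcription factors hold few or no lower genes, and 17 of 31 reactive astrocyte genes were lower. Of all genes tested, 22.2% were higher and 21.6% lower.

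Most genes that take up and convert neurotransmitters were higher in astrocytes than in the mean of the other glia, with exceptions among the carriers. All 13 genes of glutamate, GABA and glycine handling were called higher against the mean, as were 22.2% of all genes, with a median log2 difference of 3.86 where the median over all genes was -0.06. Of the 13, 6 were enriched, as were 2.52% of all genes. Slc1a3, which encodes the second astrocytic glutamate transporter GLAST, stood at 1781, 2177 and 2280 CPM in astrocytes against 234, 281 and 314 in OPCs. Slc7a11, the cystine-glutamate exchanger, stood at 294, 361 and 469 CPM in astrocytes, 17.9, 28.7 and 39.5 in microglia and 31.5, 41.6 and 57.4 in OPCs. Slc6a11, the GABA transporter GAT-3, was enriched, with 925 to 1038 CPM in astrocytes and 113 to 157 in OPCs. Slc6a13, the GABA transporter GAT-2, is not in that list of 13 and was called lower against the mean, with 0 to 0.13 CPM in astrocytes (at most 1 count in a library), 0.853 to 3.79 in microglia, 2.85 to 8.82 in OPCs and 0 to 1.93 in oligodendrocytes. Slc6a9, the glycine transporter GlyT1, was the exception among the 13, with 13.7 to 36.7 CPM in astrocytes, 16.1 to 29 in OPCs and 14.5 to 69.9 in oligodendrocytes, where it was higher than in astrocytes (log2 difference -1.003 ± 0.35). Its count is uncertain, as 33.8% of its exonic bases overlap another gene.

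Glul encodes glutamine synthetase, which converts the glutamate taken up into glutamine. It stood at 3519, 3783 and 4504 CPM in astrocytes, 897, 1108 and 1528 in microglia, 282, 434 and 591 in OPCs and 1830, 1597, 1242 and 1473 in oligodendrocytes. Its log2 difference was 3.14 ± 0.19 from OPCs but 1.36 ± 0.20 from oligodendrocytes, so Glul was called higher against each type and yet not enriched, and here the oligodendrocytes and not the OPCs were nearest. Glud1, the mitochondrial glutamate dehydrogenase, stood at 1150 to 1446 CPM in astrocytes and 258 to 354 in OPCs, and left the enriched set when library size was taken without mitochondrial genes.

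Of 16 genes of water and ion handling, 14 were higher against the mean (22.2% of all genes), 1 lower (21.6%) and 7 enriched (2.52%). The median log2 difference was 3.48. Atp1b2, the β2 subunit of the sodium pump and among the 10 most abundant per length, stood at 1787, 2332 and 2668 CPM in astrocytes, 8.1, 14.3 and 42.8 in microglia, 369, 445 and 524 in OPCs and 135, 149.8, 238 and 396 in oligodendrocytes. Slc4a4, the sodium bicarbonate cotransporter, stood at 718, 954 and 1041 CPM in astrocytes against 85.4, 103.6 and 139 in OPCs. Mlc1, a membrane protein of the endfeet that binds HepaCAM, stood at 332, 365 and 383 CPM in astrocytes against 17.6, 35.4 and 41.9 in OPCs. All astrocyte libraries lay above every other library for these genes, as for 12 of the 16 (5.3% of all genes tested).

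Kcnj10 encodes Kir4.1, the inward rectifier by which astrocytes take up potassium, and it differed little from oligodendrocytes. It stood at 397, 423 and 510.4 CPM in astrocytes, 6.14, 8.44 and 10.5 in microglia, 172, 213 and 261 in OPCs and 391, 367, 257 and 287 in oligodendrocytes. The astrocyte libraries lay above all others, but the log2 difference from oligodendrocytes was 0.43 ± 0.17 (edgeR, Benjamini-Hochberg adjusted p = 0.0471), and it no longer passed the threshold in 11 alternatives, among them those without the astrocyte library of mouse 1, 2, 4, 5 or 6 or the oligodendrocyte library of mouse 5 or 6. Slc12a2, the sodium, potassium and chloride carrier NKCC1, stood at 60.7 to 138 CPM in astrocytes and 192 to 525 in oligodendrocytes and was lower in astrocytes (log2 difference -1.72 ± 0.27). Slc8a1, a sodium-calcium exchanger, was lower in astrocytes than in every other type, at 19.6 to 33.2 CPM against 83.2 to 98.8 in microglia, 72.8 to 95.3 in OPCs and 175 to 258 in oligodendrocytes.

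The connexins split by cell type. Of 11 connexins and pannexins tested, 5 were called higher (22.2% of all genes), 2 lower (21.6%) and 2 enriched (2.52%). For this list the median log2 difference was 1.17. Gjb6, which encodes connexin 30, stood at 286, 321 and 468 CPM in astrocytes against 23.5, 27.5 and 47.7 in OPCs, and Gja1 is given above. Gjb1, the oligodendrocyte connexin 32, was lower in astrocytes than in oligodendrocytes, at 1.85 to 15.4 against 16.1 to 68.1 CPM (log2 difference -2.08 ± 0.46). Gjb1 was nevertheless called higher against the mean. Beside it, the oligodendrocyte markers stood at 12.4% to 34.1% of their oligodendrocyte level in the astrocyte libraries, and the mean level of Gjb1 was 9.08 CPM in astrocytes against 38.9 in oligodendrocytes. The part of oligodendrocyte RNA in this level was not tested.

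Of the β subunits of the sodium pump, which carry the pump to the membrane, Atp1b2 was enriched, while Atp1b1 stood at 141 to 194 CPM in astrocytes and did not pass the threshold against OPCs (0.55 ± 0.25) or oligodendrocytes (0.39 ± 0.29) and Atp1b3 was lower than in oligodendrocytes (-1.31 ± 0.19).

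The glutamate carriers Slc1a2 and Slc1a3 were enriched in astrocytes, and a relative of theirs, which is not in the list of 13 above, was lower against the mean. Slc1a1, which encodes the transporter EAAC1 known from neurons, stood at 1.85, 4.58 and 9.98 CPM in astrocytes, 96.8, 108 and 117 in OPCs and 58.2, 42.5, 50.9 and 26.8 in oligodendrocytes, with a log2 difference from OPCs of -4.33 ± 0.49. The astrocyte libraries did not overlap those of OPCs or oligodendrocytes. Of the receptors for fibroblast growth factors, Fgfr3 was enriched (376, 458 and 536 CPM in astrocytes against 19.2, 35.2 and 65.6 in OPCs and 9.38, 6.66, 5.78 and 26.6 in oligodendrocytes). Fgfr2 stood at 219, 282 and 404 CPM in astrocytes, 12.7, 21.9 and 45.9 in OPCs and 382, 406, 326 and 276 in oligodendrocytes, so astrocytes and oligodendrocytes overlapped and their log2 difference was -0.25 ± 0.34. Fgfr1 was higher in astrocytes than in each type, with a log2 difference of 1.80 ± 0.21 from OPCs.

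Members of the aldolase, proteolipid and NDRG families also differed from each other. Aldoc differed from the mean of the others by 4.58 ± 0.19 on the log2 scale, and Aldoa, the aldolase of muscle and most tissues, by 0.59 ± 0.15, with 202 to 293 CPM in astrocytes and 156 to 339 in oligodendrocytes. Of the exonic bases of Aldoa, 43.8% overlap another gene, so its count is uncertain. Gpm6a, a membrane protein related to the myelin proteolipid, stood at 559.5 to 728 CPM in astrocytes and 278 to 368 in OPCs, and its relative Gpm6b at 826 to 1077 in astrocytes and 902 to 1295 in oligodendrocytes. Ndrg1, a relative of Ndrg2, stood at 19 to 88 CPM in astrocytes against 96.2 to 267 in oligodendrocytes and was lower in astrocytes (-1.69 ± 0.50), where Ndrg2 was enriched.

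**Figure D4:**
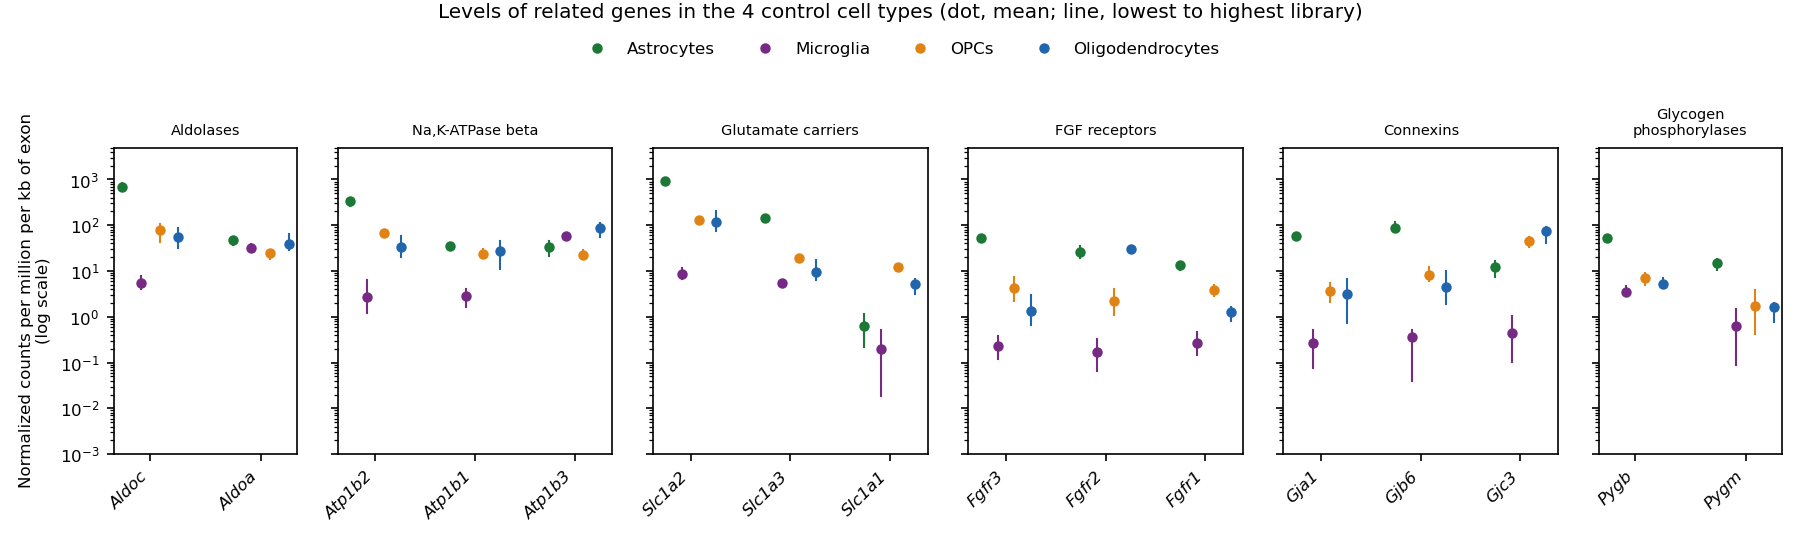
Levels of related genes in the 4 control cell types, in normalized CPM per kilobase of exon on a log axis. Dots are means and lines run from the lowest to the highest library. Astrocytes hold the highest dot for 1 or more members of each family and lie below oligodendrocytes for Atp1b3, Slc1a1, Fgfr2 and Gjc3.

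Lipid carriers and enzymes that activate or lengthen fatty acids were mostly higher. Of 15 genes of lipoproteins and fatty acid handling, 13 were higher against the mean (22.2% of all genes), 7 enriched (2.52%) and 1 depleted (1.55%). Their median log2 difference was 3.49. Plpp3, a phospholipid phosphatase, stood at 677, 954 and 1025 CPM in astrocytes against 119.7, 141 and 174 in OPCs, and Acsl6, which activates long-chain fatty acids, at 449, 574 and 616 against 51, 63.6 and 75.8. Elovl2, an elongase of polyunsaturated fatty acids, stood at 106, 115 and 134 CPM in astrocytes against 3.38, 6.89 and 14.1 in OPCs, and Lcat, which esterifies cholesterol on lipoproteins, at 128, 199.8 and 267 against 5.08, 18.5 and 39.7. All astrocyte libraries lay above every other library for these genes, as for 11 of the 15 (5.3% of all genes tested). Apoe, the main apolipoprotein of the brain, stood at 2391, 2831 and 3185 CPM in astrocytes, 550.1, 932 and 1405 in microglia, 550.2, 789 and 969 in OPCs and 397, 596, 307 and 419.7 in oligodendrocytes. It was higher in astrocytes than in each type, by 1.64 ± 0.20 on the log2 scale against microglia, and was not enriched. Abcg1, an exporter of cholesterol, went the other way, at 6.35, 17 and 29.1 CPM in astrocytes against 54.5, 78.1 and 83.1 in microglia, 89.5, 102 and 131 in OPCs and 97.4, 103.6, 49.9 and 54.6 in oligodendrocytes, with no overlap.

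Of the 19 enzymes of cholesterol synthesis, 18 were higher against the mean (22.2% of all genes) and 1 lower (21.6%), with a median log2 difference of 2.27. Against OPCs alone 17 were higher (13.5% of all genes), with a median of 1.57. Against oligodendrocytes, which make the cholesterol of myelin, 16 were higher (17.1% of all genes) and 1 lower (20.5%), with a median of 1.74. Msmo1, a sterol demethylating oxidase, stood at 479.8, 498 and 703 CPM in astrocytes against 76.1, 124 and 153 in OPCs, and Idi1, the isomerase of the isoprene units, at 56.8, 76.2 and 112 against 6.27, 9.59 and 14.8. The astrocyte libraries lay above all others for 14 of the 19 enzymes, as they did for 5.3% of all genes tested. The exception was Ebp, a sterol isomerase, at 3.99 to 9.72 CPM in astrocytes and 8.67 to 29.6 in oligodendrocytes (log2 difference from the mean -0.74 ± 0.25). Idi1, Fdft1, Msmo1 and Nsdhl were enriched, and of these only Idi1 stayed so with library size taken without mitochondrial genes.

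Most genes of glycolysis, glycogen and lactate were higher in astrocytes, and the enriched ones were Aldoc and 3 genes of glycogen. Of 25 genes of glycolysis, glycogen and lactate, 19 were higher (22.2% of all genes) and 2 lower (21.6%) against the mean. Their median log2 difference was 1.30, and the 4 enriched (2.52% of all genes) were Aldoc, Pygb, Pygm and Ppp1r3c. Pygb, the brain glycogen phosphorylase, stood at 457, 524 and 618 CPM in astrocytes against 50.8, 68.7 and 92.5 in OPCs, and Pygm, the muscle isoform, at 39.9, 61.2 and 71 against 1.58, 6.33 and 14.8. Ppp1r3c, which targets a phosphatase to glycogen, stood at 451, 477 and 583 CPM in astrocytes, 0.756, 2.03 and 3.21 in microglia, 6.83, 45.3 and 50.3 in OPCs and 23.6, 22.8, 31.4 and 30.1 in oligodendrocytes. All 3 glycogen genes were above every other library in each astrocyte library, as were 11 of the 25 genes (5.3% of all genes tested).

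Subunits of lactate dehydrogenase differed less. Ldhb, the heart type subunit, differed from the mean by 1.76 ± 0.12 and Ldha, the muscle type subunit, by 0.68 ± 0.13, and Ldha was 81.7 to 136 CPM in astrocytes and 54.4 to 90.2 in OPCs, where the difference of 0.34 ± 0.17 did not pass the threshold. Hk2, an inducible hexokinase, was lower against the mean and stood at 2.66 to 9.46 CPM in astrocytes, 60.7 to 103.6 in microglia and 0.417 to 10.4 in OPCs. Pfkfb3, which makes the activator of phosphofructokinase, was 49.8 to 63.6 CPM in astrocytes and 348 to 517 in microglia, a log2 difference of -2.91 ± 0.27, and higher than in OPCs by 0.94 ± 0.25. The level of Gapdh, 30.3 to 46.3 CPM, is uncertain, because the gene has many near-identical copies in the genome.

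Of 18 genes of fatty acid oxidation, 15 were higher against the mean (22.2% of all genes) and none was lower (21.6%), with a median log2 difference of 1.18. Of these 3 were enriched (2.52% of all genes), among them Cpt2 and Acaa2. Acaa2, the mitochondrial thiolase, stood at 53.6, 58.2 and 75.5 CPM in astrocytes, 4.72, 9.94 and 15.6 in microglia, 5.4, 6.81 and 10.6 in OPCs and 1.28, 8.66, 3.08 and 0.315 in oligodendrocytes. Of 14 genes of serine, glycine and folate metabolism, 10 were higher, 2 lower and 3 enriched, beside the same shares of all genes (median 1.78). Gldc, which cleaves glycine, stood at 97.9, 124 and 148 CPM in astrocytes against 19, 22.1 and 29.6 in OPCs, and Aldh1l1, a folate enzyme used as an astrocyte marker, at 118, 137 and 157 against 4.32, 10.6 and 16.5. Phgdh, the entry enzyme of serine synthesis, was 37.4 to 67.1 CPM in astrocytes and 6.14 to 39.7 in oligodendrocytes, so that these libraries overlapped, and Mthfd2, a mitochondrial folate enzyme, was called lower against every other type (-1.99 ± 0.33 against the mean).

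Receptors separated into those of astrocytes and those of their neighbours. Of 34 receptor genes, 29 were higher against the mean (22.2% of all genes), 3 lower (21.6%) and 9 enriched (2.52%), with a median log2 difference of 2.75. S1pr1, a receptor for sphingosine 1-phosphate, stood at 777, 988 and 1199 CPM in astrocytes against 42.7, 72.4 and 119.6 in OPCs, and Ntsr2, a neurotensin receptor, at 403, 459 and 591 against 24.5, 49.8 and 69.8. Egfr, the receptor for epidermal growth factor, stood at 146, 214 and 258 CPM in astrocytes and 6.91, 14.1 and 29.5 in OPCs, and Tlr3, the receptor for double-stranded RNA, at 164, 242 and 291 in astrocytes and 24.5, 28.7 and 35.4 in microglia. Bmpr1b, a receptor for bone morphogenetic proteins, stood at 128, 153 and 171 CPM in astrocytes and 3.1, 13.7 and 20.7 in OPCs. For all 5 the astrocyte libraries lay above every other, as for 18 of the 34 receptor genes (5.3% of all genes tested).

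Other receptors differed by less or were higher in another type. Ntrk2, the receptor of BDNF, stood at 1447 to 1718 CPM in astrocytes and 694 to 789.7 in OPCs (log2 difference 1.03 ± 0.19). Grm3, a metabotropic glutamate receptor, stood at 295 to 372 CPM in astrocytes and 82.8 to 136 in oligodendrocytes, whereas Grm5, another one, was 6.84, 8.82 and 11.3 CPM in astrocytes and 57.5, 71.5 and 95.8 in OPCs. Ednrb, an endothelin receptor, was lower in astrocytes than in OPCs, at 189, 229 and 251 against 359, 447 and 512 CPM (log2 difference -0.96 ± 0.22). P2ry1, a purinergic receptor, was at 0, 0.441 and 2.43 CPM in astrocytes and at 6.59, 10.8 and 17.4 in OPCs, without overlap.

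Of 28 genes of secreted and matrix proteins, 24 were higher against the mean (22.2% of all genes), 1 lower (21.6%) and 7 enriched (2.52%). Here the median log2 difference was 3.46. Mfge8, a secreted protein that bridges phosphatidylserine to phagocytes, stood at 938, 1075 and 1265 CPM in astrocytes against 83, 128 and 198 in OPCs, and Htra1, a secreted protease, at 566, 639.8 and 722 against 61.1, 102 and 138. Chrdl1, an antagonist of bone morphogenetic proteins, stood at 76.3, 111 and 132 CPM in astrocytes, 5.83, 11.9 and 19.9 in OPCs and 2.18, 1.86, 1.73 and 1.57 in oligodendrocytes. Sparcl1 and Sparc encode related matrix proteins and differed in direction. Sparcl1 stood at 3361, 3873 and 4159 CPM in astrocytes, 31.8, 46.5 and 66.1 in microglia and 881, 944 and 1046 in OPCs. Sparc stood at 121, 195 and 245 CPM in astrocytes, 2189, 2628 and 3139 in microglia and 110.0, 159.7 and 307 in OPCs, and was lower against the mean, while its difference from OPCs was 0.13 ± 0.25.

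The phagocytic receptors and bridges were divided, with 6 of 11 higher (22.2% of all genes), 1 lower (21.6%) and 2 enriched (2.52%). Over the 11 the median log2 difference was 0.71. Mertk, a receptor tyrosine kinase for apoptotic cells, stood at 314, 405 and 617 CPM in astrocytes and 256, 371 and 442 in microglia, overlapping, with a log2 difference of 0.23 ± 0.18, and at 51.2, 56.4 and 82.8 in OPCs. Megf10, another engulfment receptor, stood at 182, 219 and 235 CPM in astrocytes, 0.157, 0.517 and 1.94 in microglia and 59.8, 80.1 and 88.6 in OPCs. Pros1, the bridging protein S, was 12.4 to 18.8 CPM in astrocytes and 97.7 to 133 in microglia.

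Transcription factors of neural development were almost all higher. Of 32 tested, 31 were higher against the mean (22.2% of all genes), none was lower (21.6%) and 14 were enriched (2.52%), with a median log2 difference of 3.51. Sox9, which drives the switch to glia, stood at 234, 342 and 495 CPM in astrocytes, 13.4, 31.4 and 57.7 in OPCs and 7.96, 8.52, 23.5 and 42.3 in oligodendrocytes. Lhx2, a homeobox factor of the cortex, stood at 159.7, 204 and 223 CPM in astrocytes against 7.58, 28.1 and 31.2 in OPCs, and Gli3, a factor of the hedgehog pathway, at 130.3, 167 and 186 against 7.31, 13.3 and 21.7. Id4, an inhibitor of helix-loop-helix factors, stood at 115, 147 and 195 CPM in astrocytes against 10.2, 12.8 and 15.3 in OPCs, and Emx2, a homeobox factor of the dorsal forebrain, at 35.6, 40.9 and 49.5 against 6.46, 10.3 and 14.2. All astrocyte libraries lay above every other library for these genes, as for 22 of the 32 (5.3% of all genes tested). Nfia, a factor of the onset of glial development, differed from OPCs by 0.46 ± 0.14, with 229 to 303 CPM in astrocytes and 176 to 226 in OPCs, and Etv5, a target of fibroblast growth factor signals, by -0.58 ± 0.22. The call for Etv5 against OPCs was lost with the mouse as a replicate block (log2 difference -0.55, Benjamini-Hochberg adjusted p = 0.0535 by edgeR) and in most other alternatives.

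Of 24 genes of redox, metal and hormone handling, 19 were higher against the mean (22.2% of all genes), 1 lower (21.6%) and 10 enriched (2.52%). The median log2 difference was 2.91, or 2.72 with genes at the floor set to their bound. Gstm1 and Gstm5, glutathione transferases among the most abundant genes per length, stood at 855, 1071 and 1305 and 297, 339 and 384 CPM in astrocytes against 69.3, 111 and 154 and 37.8, 62.1 and 80.6 in OPCs. Prdx6, a peroxiredoxin, stood at 502, 581 and 669 CPM in astrocytes against 66.1, 87.2 and 113 in OPCs. Dio2, the deiodinase that activates thyroid hormone, stood at 726, 783 and 1188 CPM in astrocytes, 1.52, 3.59 and 8.33 in microglia, 60.7, 88.8 and 118 in OPCs and 38.2, 36.2, 27.6 and 54.3 in oligodendrocytes, and Slco1c1, a carrier of thyroxine, at 290.5, 373 and 418 in astrocytes against 7.08, 22 and 40.1 in OPCs. Maob, a monoamine oxidase, stood at 64.5, 75.8 and 95.8 CPM in astrocytes against 3.74, 4.62 and 8.15 in OPCs. No other library reached the astrocytes for these genes, which held for 17 of the 24 (5.3% of all genes tested). Txnrd1, a thioredoxin reductase, was lower against the mean, at 16.2 to 26.3 CPM in astrocytes and 317 to 513 in microglia. Of the 24 genes, 0 were called lower than in OPCs (17.4% of all genes) and 0 lower than in oligodendrocytes (20.5%). The call for Txnrd1 against the mean thus rests on microglia.

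Genes known to rise in reactive astrocytes were more often lower than higher against the mean of the other glia. Of 31 tested, 17 were lower against the mean (21.6% of all genes were) and 4 higher (22.2% of all genes). Of the same 31, 2 were enriched (2.52% of all genes) and 4 depleted (1.55%). Their median log2 difference was -1.30 (-1.75 with genes at the floor set to their bound). Against microglia 22 were lower (29.8% of all genes) and 6 higher (31.3%), with a median of -3.51. Against OPCs 14 were lower (17.4%) and 6 higher (13.5%), with a median of -1.07. Against oligodendrocytes 9 were lower (20.5%) and 7 higher (17.1%), with a median of -0.79. Gfap, the intermediate filament of astrocytes, stood at 65.2, 88.5 and 99.2 CPM in astrocytes, 0.131, 0.997 and 1.31 in microglia, 1.73, 5.32 and 12.9 in OPCs and 3.34, 1.07, 2.51 and 4.25 in oligodendrocytes, and was enriched without overlap. Vim, another intermediate filament, stood at 24.8, 30.3 and 43.7 CPM in astrocytes and 20.7, 31.8 and 41 in OPCs, overlapping, with a log2 difference of 0.06 ± 0.21. Serpina3n, a secreted protease inhibitor, stood at 2.98, 5.78 and 9.06 CPM in astrocytes and 15.9, 21.1 and 26 in OPCs, and Osmr, the receptor of oncostatin M, at 16.1, 24.6 and 30.9 and 3.23, 7.14 and 9.25. Among the depleted members were Ptgs2, the inducible cyclooxygenase, at 0.389, 0.642 and 1.62 CPM in astrocytes and 2.08, 4.13 and 5.15 in OPCs, and Cp, the ferroxidase ceruloplasmin, at 1.46, 2.75 and 5.1 in astrocytes and 56.1, 63 and 74.7 in OPCs.

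The enriched set was not all protein-coding. It held 346 protein-coding genes, 91 long noncoding RNAs (lncRNAs) and 52 genes of other kinds, so lncRNAs were 18.6% of the enriched genes and 9.85% of the genes tested. The 3 with the highest level were Gm6145 (69.4, 125 and 177 CPM in astrocytes, 2.99, 6.96 and 13.8 in OPCs, 0, 0.263 and 0.756 in microglia), 2900052N01Rik (91.2, 106 and 139 in astrocytes, 4.75, 9.49 and 12.1 in OPCs) and Gm13872 (48.3, 81.5 and 113 in astrocytes, 0.333, 4.46 and 7.74 in OPCs). On GRCm39 they lie at chr14:105851413-105881159 (minus strand), chr9:46823892-46838665 (plus) and chr2:102563448-102577123 (minus). The last lies inside the span of Slc1a2, which is read from the other strand (chr2:102488574-102621129, plus). Of the 91 enriched lncRNAs, 18 (19.8%) overlapped the span of an enriched protein-coding gene, against 42 of all lncRNAs tested (2.20%), and in all 18 the protein-coding gene lay on the other strand. Gm13872 had the highest level of the 18. Others were 1700071M16Rik in the span of Pla2g7 (mean 24.8 CPM in astrocytes), 9430041J12Rik in that of Ttyh1 (17.3 CPM), Egfros in that of Egfr (3.88 CPM) and B230104I21Rik in that of Prdm16 (3.47 CPM). Where the strand setting of the counting is not given, reads of a gene and of its antisense partner cannot be told apart, so the levels of these 18 lncRNAs are uncertain. The part of reads from the protein-coding genes in the 19.8% share was not tested. Of the 91, 51 overlapped the span of any protein-coding gene (56.0%, against 76.9% of all lncRNAs tested), and their levels are uncertain too.

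Of the 300 depleted genes, 246 had their highest level in microglia, 34 in OPCs and 20 in oligodendrocytes. The 5 protein-coding genes farthest from their nearest type, among those with at least 10 CPM in each other type, were Tnf, Cd83, Il1b, Ccl3 and Trp53i11. Tnf, the tumor necrosis factor gene, stood at 0, 0.346 and 7.76 CPM in astrocytes, 971, 1269 and 1514 in microglia, 10.2, 22.8 and 66.9 in OPCs and 10.7, 81.9, 7.9 and 0.629 in oligodendrocytes. Cd83, an activation marker of immune cells, stood at 0.584, 2.34 and 23.1 CPM in astrocytes, 2489, 3149 and 3420 in microglia and 27.3, 58.5 and 185 in OPCs. Microglia were the highest type for both genes, and the astrocyte libraries overlapped only those of oligodendrocytes, for Tnf. In OPCs, the mean level was 1.77% of that in microglia for the cytokine gene Il1b, 2.28% for Tnf, 2.51% for Cd83 and 2.92% for the chemokine gene Ccl3, where microglia markers stood at 2.98% to 5.58%. In astrocytes the same 4 genes were at 0.127%, 0.133%, 0.179% and 0.273% of the microglia level, where microglia markers stood at 0.66% to 2.48%. The part of microglia RNA in these levels was not tested, and 35.6% of the exonic bases of Ccl3 overlap another gene. For these 4 genes the highest astrocyte library was that of mouse 3, whose astrocyte, OPC and oligodendrocyte libraries also held the highest summed microglia markers of their type. Without mouse 3, an alternative chosen after seeing the data, 256 genes were depleted and 481 enriched, 437 of them among the 489. Trp53i11, a gene induced by p53, was of another kind, at 0.747, 1.35 and 2.26 CPM in astrocytes, 15.7, 27 and 35.9 in microglia, 8.53, 17.4 and 24.7 in OPCs and 16.8, 22.2, 49 and 40.8 in oligodendrocytes.

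The Rag2-/- libraries allowed the same comparison in other mice, with 6 astrocyte, 6 microglia, 5 OPC and 4 oligodendrocyte libraries. In them 4567 of 19412 genes were higher in astrocytes than in the mean of the other glia (23.5%), and 434 were enriched by the same rule (2.24%). Of the 489 genes enriched in controls, 475 passed the filter in the Rag2-/- libraries, 470 were called higher against the mean and 473 had a positive difference from each type. The full rule was met by 337, which are 68.9% of the control set and 77.6% of the Rag2-/- set. Slc1a2 stood at 11003, 13156 and 15712 CPM in Rag2-/- astrocytes (log2 difference from the mean 4.10 ± 0.16), Aldoc at 2679, 3134 and 3775 (4.46 ± 0.16), Aqp4 at 670.5, 814 and 981 (5.29 ± 0.32) and Gja1 at 639.7, 667 and 747 (5.02 ± 0.28). These levels overlapped those of control astrocytes for each of the 4 genes, but control and Rag2-/- libraries were scaled by TMM in separate fits. Their levels in CPM are thus not on a common scale. Gfap stood at 50.1, 69.7 and 92.3 CPM in Rag2-/- astrocytes and Thbs4 at 6.57, 14.2 and 18.3.

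Whether the astrocyte difference itself changed with genotype was tested in 1 fit of all 43 libraries. In edgeR's quasi-likelihood test no gene of 19209 passed (0%), and the smallest Benjamini-Hochberg adjusted p was 0.254. At an unadjusted p under 0.05 there were 891 genes (4.64%), and 25 of the 481 enriched genes tested (5.20%). Of the same 19209 genes, DESeq2 called 16 (17 had no adjusted p), none of them among the 489. The 489 are 2.52% of the genes tested in controls, so 16 calls are too few to set them apart from other genes. The difference between the log2 differences of Rag2-/- and control libraries had a median of -0.14 over the enriched genes and a 5th to 95th percentile range of -1.46 to 1.18. This does not show that the astrocyte difference was equal in both genotypes.

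**Figure D5:**
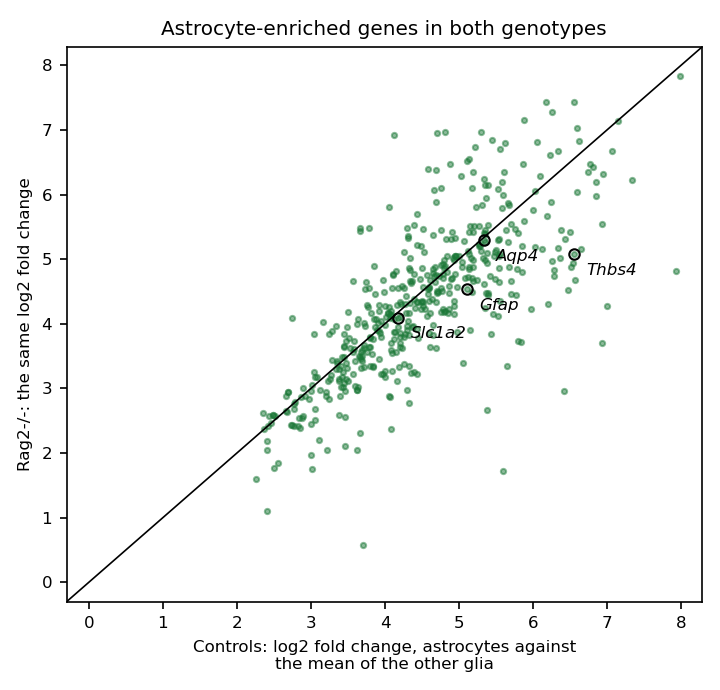
Log2 difference between astrocytes and the mean of the other glia, in controls (horizontal) and Rag2-/- libraries (vertical), for the 475 astrocyte-enriched genes tested in both. Each point is a gene, the line marks equal values, and Slc1a2, Aqp4, Gfap and Thbs4 are named. Points lie along the line, with a median difference of -0.14.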

How the data were processed

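RNA of immunopanned astrocytes, microglia, OPCs and oligodendrocytes was amplified as cDNA (Ovation RNA-Seq System V2) and sequenced in pairs by the authors. As deposited, the values are raw read-pair counts per Ensembl gene. The authors aligned reads to GRCm39 and counted with HTSeq, and the submitters' processing notes name STAR 2.7.8a. The counting mode and strand setting of HTSeq are not given in the sources used here. Of all pairs of a control library, 33.53% to 51.94% were counted on no gene and were left out of library sizes. Symbols came from GENCODE M39 for 54749 of 55416 identifiers.

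Genes with low counts were removed (filterByExpr, minimum count 10, minimum total 15), libraries were scaled by TMM, and cell type and sex were fitted by edgeR's quasi-likelihood method, with p-values adjusted over all genes tested after Benjamini and Hochberg (threshold 0.05). Each other cell type had equal weight in their mean. Fits were tested on simulated data. The tools were R 4.3.3, edgeR 4.0.16, DESeq2 1.42.0, limma 3.58.1, Python 3.11.15, numpy 2.4.6, pandas 2.3.3 and matplotlib 3.10.9. Libraries of a group came from separate mice and differed by more than sampling noise (smallest chi-square per gene 8.18). A cell type whose libraries all held 3 counts or fewer of a gene was taken at this floor (0.304 CPM in microglia, 0.233 in OPCs and 0.459 in oligodendrocytes), and floors cover counting error only.

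Named were the 4 markers, members of gene lists and families, the 10 protein-coding enriched genes highest per length, the 10 farthest from their nearest type at a mean of at least 10 CPM, the 5 farthest protein-coding depleted genes at 10 CPM in each other type, and the 3 highest enriched lncRNAs. Some genes that this rule names are not reported here. 1700071M16Rik, 9430041J12Rik, Egfros and B230104I21Rik were named after their values were seen. The members and lists were chosen with earlier results of these data known. Control libraries with the same pair number in the labels were taken to come from the same mouse, which the labels do not state. Their deviations from the group means had a mean correlation with astrocytes of 0.062 for microglia, 0.153 for OPCs and 0.122 for oligodendrocytes, against -0.012, -0.030 and -0.025 for libraries of other numbers. Alternatives were DESeq2 size factors, library size without mitochondrial genes and without TMM scaling, other filters, DESeq2, limma voom, no sex term, a replicate block, subsets of mice, each library left out in turn and, chosen after seeing the data, mouse 3 left out.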

Additional observations from a re-analysis of the deposited data

Results flagged for a closer look

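For 29 genes named by abundance, by distance or as markers, 116 groups of 4 or 6 control libraries were examined for a library that stood apart from the rest of its group by Dixon's ratio (critical value 0.829 for 4 and 0.625 for 6 libraries). It did so in 21 groups. Chance sets apart about 1 in 20 groups where values are normally distributed, which does not apply to groups near 0, such as Heph in microglia and Thbs4 in oligodendrocytes, where all other libraries were at 0. The cause was not tested for any of them.

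Genes of activated microglia stood apart in mouse 3. In its astrocytes Tnf was at 7.76 CPM, Cd83 at 23.1, Il1b at 6.65 and Ccl3 at 20.1. Ccl3 was also highest in its OPCs (169 CPM) and Tnf in its oligodendrocytes (81.9 CPM). The summed microglia markers were the highest of their type in the same 3 libraries. Gja1 was lowest in the astrocytes of mouse 3, at 610.3 CPM.

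Thbs4 stood apart in mouse 1, at 33.0 CPM in astrocytes, 0.853 in OPCs and 0.514 in oligodendrocytes. In the same mouse Grin2c was lowest among astrocytes (123 CPM), Cpe highest among OPCs (599 CPM), and 2900052N01Rik (4.39 CPM), Frem2 (1.86 CPM) and Heph (0.169 CPM) highest among microglia.

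Astrocyte genes were high in libraries of other types from mouse 6. Atp1b2 was at 42.8 CPM and Cyp4f15 at 5.12 in its microglia, and Gm6145 at 6.77 in its oligodendrocytes. The other 3 were Slc1a2 in astrocytes of mouse 4 (15168 CPM), Slc25a34 in microglia of mouse 4 (2.54 CPM) and Aox1 in microglia of mouse 5 (0.432 CPM).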

How the results depend on the processing

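Of 341 counts recomputed under alternatives, 335 stayed within 1.5 times the reported count. With only the mice that gave all 4 cell types, 2565 genes were lower against the mean, 1689 higher and 1726 lower than in OPCs, and 169 depleted, in a fit of fewer libraries. With library size taken without mitochondrial genes, and without TMM scaling, 5155 genes were lower than in OPCs. DESeq2 called 16 genes for the genotype difference where edgeR called 0. The enriched genes numbered 422 to 620 over the settings for scaling, filter and test, and 276 of the 489 were enriched in every alternative. With the mouse as a replicate block, 4232 genes were higher and 3979 lower against the mean, 507 were enriched (471 of them among the 489) and 246 depleted. The block changed 2 of 303 single-gene results, Etv5 against OPCs, given above, and Hbb-bs against the mean (0.40, adjusted p = 0.848 by edgeR). Leaving out 1 library at a time gave 3873 to 4614 genes higher and 3736 to 4490 lower against the mean, 5797 to 6452 and 5244 to 6129 against microglia, 2328 to 2894 and 2796 to 3769 against OPCs, 2900 to 3622 and 3589 to 4018 against oligodendrocytes, 439 to 525 enriched and 212 to 388 depleted. Of 9994 single-gene results under alternatives, 9888 kept their direction and side of the threshold, 64 lost and 40 gained the call. Hbb-bs alone turned, from 3.97 to -3.23 with limma voom (adjusted p = 0.142) and to -3.41 without the astrocyte library of mouse 1 (adjusted p = 0.0780 by edgeR), with up to 4.43 without another library. Without mouse 3, 4299 genes were higher and 3457 lower against the mean. Genes at the floor have no measured size, and 160 enriched genes had 1 or more types there.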
